A study of Arabidopsis thaliana with 6 samples.

Results

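The 8 genes described here build or direct the Casparian strip, the belt of lignin in the walls between endodermal cells of the root. They were chosen by name, on their function and on differences already seen in the DMMTA against control levels of these libraries, as CASP1 (AT2G36100), CASP2 (AT3G11550), CASP4 (AT5G06200), CASP5 (AT5G15290), MYB36 (AT5G57620), ESB1 (AT2G28670), PER64 (AT5G42180) and SGN3 (AT4G20140), the last annotated as GSO1, out of 26551 loci with values. RNA was sequenced from whole 6-day-old seedlings of wild-type Arabidopsis thaliana, accession Col-0, kept in shaken liquid medium. The DMMTA group (3 libraries) had 15 µM dimethylmonothioarsenate, a sulfur-containing methylated arsenic compound, in the medium for 6 h, and the control group (3 libraries) had none. The labels call the libraries biological replicates without saying how they were separated, so p-values measure the spread between these samples. Because the RNA came from whole seedlings, fewer endodermal cells and less RNA per endodermal cell cannot be told apart in any value below.

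The Casparian strip seals the space between endodermal cells, so that water and solutes must cross a membrane to reach the vascular tissue. CASP proteins are small membrane proteins that gather in a band of the plasma membrane and hold the wall-building machinery there, with ESB1, a dirigent-domain protein, and PER64, a peroxidase that oxidises lignin precursors. MYB36 is the transcription factor known to switch on CASP1, PER64 and ESB1 in the differentiating endodermis. SGN3 is a receptor kinase that senses peptide ligands leaking through gaps in the strip and triggers repair by extra lignin and suberin. Suberin is a waxy polyester that endodermal cells lay down later as a second barrier.

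Promoter sequence is shown for 4 of the genes, the structural genes CASP1, PER64 and ESB1 and their regulator MYB36, because CASP1 and PER64 were far lower in DMMTA, ESB1 lower by less and MYB36 higher. Each window is the 250 bases before the annotated gene start in TAIR10.1, printed 5′ to 3′ on the strand of the gene. The windows are chr2:15160800-15161049 on the minus strand for CASP1, chr5:16852378-16852627 on the plus strand for PER64, chr2:12302359-12302608 on the minus strand for ESB1 and chr5:23334517-23334766 on the plus strand for MYB36. Capitals mark the MYB core motif CNGTT on either strand, so that AACNG in the printed strand is also in capitals.
CASP1: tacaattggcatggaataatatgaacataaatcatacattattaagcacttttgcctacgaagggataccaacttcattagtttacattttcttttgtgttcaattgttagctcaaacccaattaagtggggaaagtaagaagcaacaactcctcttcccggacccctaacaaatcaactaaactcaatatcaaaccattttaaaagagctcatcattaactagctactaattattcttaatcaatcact
PER64: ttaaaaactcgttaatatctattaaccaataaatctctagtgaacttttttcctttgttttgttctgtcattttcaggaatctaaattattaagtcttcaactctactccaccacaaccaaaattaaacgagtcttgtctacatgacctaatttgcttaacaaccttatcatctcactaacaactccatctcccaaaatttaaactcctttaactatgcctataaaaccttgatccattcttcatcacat
ESB1: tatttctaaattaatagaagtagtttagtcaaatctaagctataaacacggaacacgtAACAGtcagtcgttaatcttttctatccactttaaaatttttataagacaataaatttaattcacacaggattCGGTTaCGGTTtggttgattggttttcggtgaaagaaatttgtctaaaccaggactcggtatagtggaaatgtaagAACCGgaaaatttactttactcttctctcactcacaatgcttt
MYB36: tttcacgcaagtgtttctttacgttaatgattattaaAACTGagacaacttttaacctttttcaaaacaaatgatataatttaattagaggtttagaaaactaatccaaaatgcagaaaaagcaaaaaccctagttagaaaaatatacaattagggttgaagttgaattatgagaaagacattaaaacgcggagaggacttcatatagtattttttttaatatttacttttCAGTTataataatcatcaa
CASP1 and PER64 held no CNGTT in these windows, while ESB1 held 4 and MYB36 held 2. Over the 8 genes the motif was in the window of 5, CASP1, CASP2 and PER64 being without it. CASP4, whose mean was 4.31-fold lower in DMMTA, held 1, and CASP2, 3.01-fold lower, held 0. It was in 70.2% of the 27443 windows of the same length before nuclear protein-coding genes. ACCNACC, a form of the AC element of lignin gene promoters, searched on both strands, was in none of the 8 windows and in 6.1% of all windows. Other forms of that element were not searched. A match to such short letters is a description of the sequence, and a window without one says nothing about binding.

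Levels are TPM, made from RPKM by summing each locus and rescaling every library to 1000000, a scale per length on which genes can be compared. Depth was estimated from the spacing of low values, at 72500000 to 135000000 reads for control and 66200000 to 110000000 reads for DMMTA. Among the 18813 loci that reached 1 TPM in 3 or more libraries, 3273 were higher and 1979 lower in DMMTA at an adjusted p under 0.05 (limma, Benjamini-Hochberg), or 2830 higher and 2738 lower with limma-voom on rebuilt reads. Log2 fold changes are DMMTA minus control on log2(TPM + 0.5), which understates changes at low levels, and the median of all tested loci was 0.04. DMMTA replicate 1 stood apart for these genes, being the lowest DMMTA library in 8 of 8, against 31.0% of all tested loci. Values are therefore also given without it. The 8 genes were proposed with results of this contrast in view, so their own differences are given as a description. The calls of the fit are counted once for them, beside the share of all loci, and support nothing.

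In control seedlings the levels were ordered CASP1, ESB1, PER64, CASP2, CASP4, MYB36, SGN3 and CASP5, from a mean of 47.4 TPM for CASP1 to 0.570 TPM for CASP5. Each neighbouring pair in that order had ranges that did not overlap, except CASP4 (4.63 to 6.46 TPM) and MYB36 (4.15 to 5.86 TPM). In DMMTA the order was CASP1, ESB1, MYB36, SGN3, PER64, CASP2, CASP4 and CASP5, from 12.3 to 0.385 TPM. There, MYB36 and SGN3 were the sole neighbours whose ranges did not overlap. The regulator and the receptor, both below PER64 and CASP2 in every control library, had means above them in DMMTA.

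**Figure D1:**
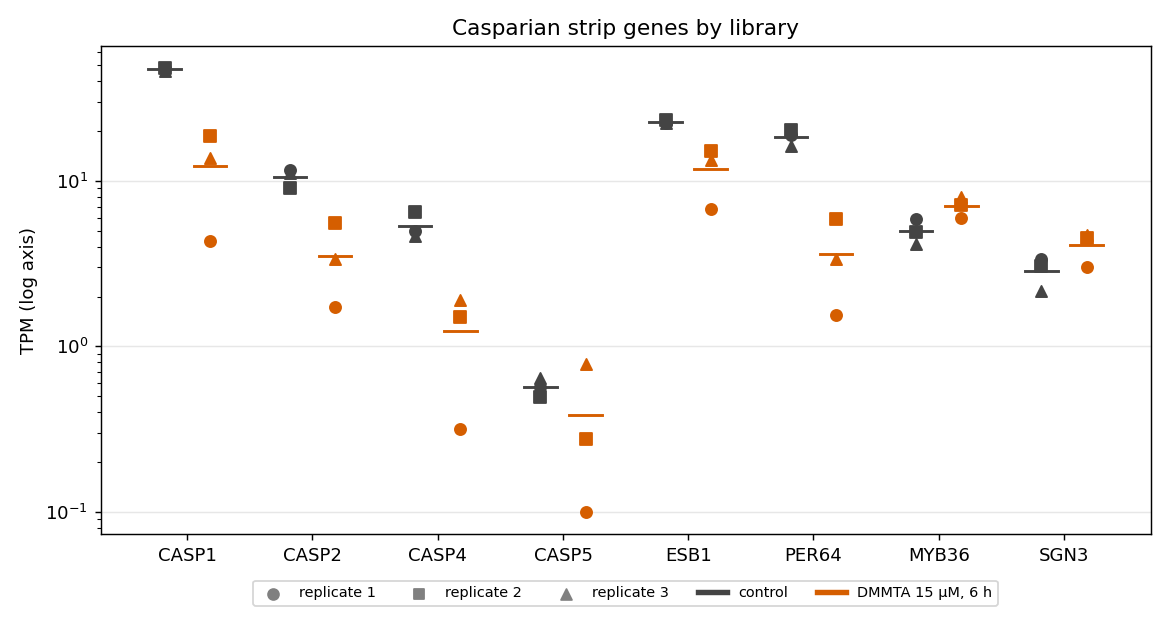
TPM on a log axis for the 8 genes, with 3 control libraries (grey) and 3 DMMTA libraries (orange) per gene, symbols for the replicate number and a bar at the group mean. CASP1, CASP2, CASP4, ESB1 and PER64 lie lower in all DMMTA libraries, MYB36 lies higher, and CASP5 and SGN3 overlap.

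Of the membrane scaffold genes, CASP1, the most abundant, stood at 48.1, 47.9 and 46.2 TPM in control replicates 1 to 3 and at 4.36, 18.8 and 13.8 TPM in DMMTA replicates 1 to 3. The groups did not overlap, the control libraries lay close together and DMMTA replicate 1 was far below the other DMMTA libraries. The mean was 3.85-fold lower in DMMTA, 12.3 ± 7.34 against 47.4 ± 1.04 TPM (SD, n = 3), a log2 fold change of -2.12 ± 0.43 (SE). Without DMMTA replicate 1 the log2 fold change was -1.53.

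CASP2, another scaffold protein, had 11.7, 9.10 and 11.1 TPM in control and 1.72, 5.53 and 3.35 TPM in DMMTA. Every DMMTA library lay below every control library, with replicate 1 again lowest. The mean was 3.01-fold lower, a log2 fold change of -1.57 ± 0.32 (SE), or -1.20 without DMMTA replicate 1. CASP4 had 4.98, 6.46 and 4.63 TPM in control and 0.316, 1.5 and 1.91 TPM in DMMTA. The groups were apart, and DMMTA replicate 1 held an estimated 21 reads of this gene. Its mean was 4.31-fold lower, a log2 fold change of -1.88 ± 0.37 (SE), or -1.40 without DMMTA replicate 1.

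CASP5 was the rarest of the 8, at 0.571, 0.496 and 0.642 TPM in control and 0.0994, 0.276 and 0.780 TPM in DMMTA. DMMTA replicate 3 was its highest library and DMMTA replicate 1 its lowest, so the groups overlapped. It stayed under 1 TPM in all 6 libraries, did not pass the filter and was not fitted, and 6 to 44 estimated reads stand behind each value.

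Summed over CASP1, CASP2, CASP4 and CASP5, the scaffold genes held 65.4, 64.0 and 62.5 TPM in control and 6.49, 26.1 and 19.9 TPM in DMMTA. CASP1 made up 73.5% to 74.9% of that sum in control and 67.1% to 72% in DMMTA. The sum was thus lower in every DMMTA library, while CASP1 remained the larger portion of it. The coding sequences of these 4 genes are related but not alike, with 64.6% to 80.6% of bases identical between pairs and no exact shared stretch over 20 bases. CASP2 and CASP4 were the nearest pair, with 84.2% of residues identical in the encoded proteins, and CASP5 was the most distant, at 47.8% to 50.0%.

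Of the wall proteins, PER64 had 19.0, 20.4 and 16.2 TPM in control and 1.54, 5.90 and 3.37 TPM in DMMTA. The groups did not overlap and DMMTA replicate 1 was lowest. The mean was 5.14-fold lower, the highest ratio among the 8, with a log2 fold change of -2.36 ± 0.35 (SE), or -1.93 without DMMTA replicate 1. ESB1 had 22.4, 23.2 and 22.4 TPM in control and 6.79, 15.1 and 13.3 TPM in DMMTA. It too was lower in every DMMTA library, by less than the others. Its mean was 1.94-fold lower, a log2 fold change of -1.0 ± 0.25 (SE), or -0.66 without DMMTA replicate 1. The ratio of PER64 to ESB1 was 0.850, 0.876 and 0.721 in control and 0.226, 0.392 and 0.254 in DMMTA, so these wall genes did not differ in proportion.

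ESB1 shares 1772 bases of its span with AT2G28671 on the other strand. The libraries were strand-specific per the labels, but whether the counting used strand is not given in the sources used here, so reads of the pair may not be separate. AT2G28671, an uncharacterized protein gene, was also lower, from 10.3 ± 1.15 to 5.34 ± 1.53 TPM (SD, n = 3, adjusted p = 0.0119, limma). ESB1 has 2 annotated coding sequences, the first holding 43.7% to 50.6% of its summed value over the 6 libraries. The place of ESB1 above PER64 in control, and the ratio of PER64 to ESB1, rest on that summing. SGN3 shares 337 bases with AT4G20150 on the other strand, and CASP1, CASP5 and PER64 share 49, 4 and 34 bases with neighbours.

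MYB36, the regulator, ran the other way. It had 5.86, 4.92 and 4.15 TPM in control and 5.99, 7.16 and 7.99 TPM in DMMTA. The groups did not overlap, though control replicate 1 and DMMTA replicate 1 were near each other. The mean was 1.42-fold higher in DMMTA, a log2 fold change of 0.47 ± 0.16 (SE), or 0.57 without DMMTA replicate 1. SGN3, the receptor, had 3.35, 3.06 and 2.16 TPM in control and 3.01, 4.50 and 4.71 TPM in DMMTA. Here DMMTA replicate 1 lay within the control range. The mean was 1.42-fold higher, a log2 fold change of 0.44 ± 0.21 (SE), or 0.62 without DMMTA replicate 1.

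Set against MYB36 within the same library, CASP1 stood at 8.20, 9.75 and 11.1 times the level of MYB36 in control and at 0.727, 2.63 and 1.73 times in DMMTA. CASP1 thus exceeded its regulator in every control library and was below it in DMMTA replicate 1. The summed level of the 5 lower genes was 18.1 to 24.2 times that of MYB36 in control and 2.46 to 6.54 times in DMMTA. A ratio within a library is free of the scaling between libraries.

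Of the 7 genes fitted, 5 were called in either direction, where 27.9% of all tested loci were. All 5 were lower, where 10.5% of all loci were, and 0 were higher, where 17.4% were. Without overlap between the groups, 5 of 7 were lower, against 18.6% of all tested loci, and MYB36 was higher, against 27.8%. The choice of the genes used this contrast, so nothing is read from these counts.

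Relative to the control mean, the 5 lower genes stood at 5.91% to 29.9% in DMMTA replicate 1, at 28.0% to 66.4% in replicate 2 and at 18.2% to 58.5% in replicate 3. The coefficient of variation of these 5 was 2.17% to 18.1% among control libraries and 37.2% to 66.7% among DMMTA libraries. MYB36 varied by 17.2% and 14.3% and SGN3 by 21.7% and 22.7%, so these genes varied about as much in both groups. CASP5, the rarest, varied by 12.8% in control and 91.7% in DMMTA, the widest of the 8. Other lists were not all lowest in DMMTA replicate 1. Its level divided by the mean of the other DMMTA libraries had a median of 0.387 over the 7 fitted genes, 0.423 over 12 partners of strip building, 0.642 over 17 suberin genes, 1.01 over 6 root hair genes and 1.02 over all tested loci. Over 5 xylem markers this median was 0.822, and all 5 were lowest in DMMTA replicate 1. Over 3 root cap markers the median was 2.22 and over 3 root meristem markers 1.85. The part of these in the spread was not tested.

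**Figure D2:**
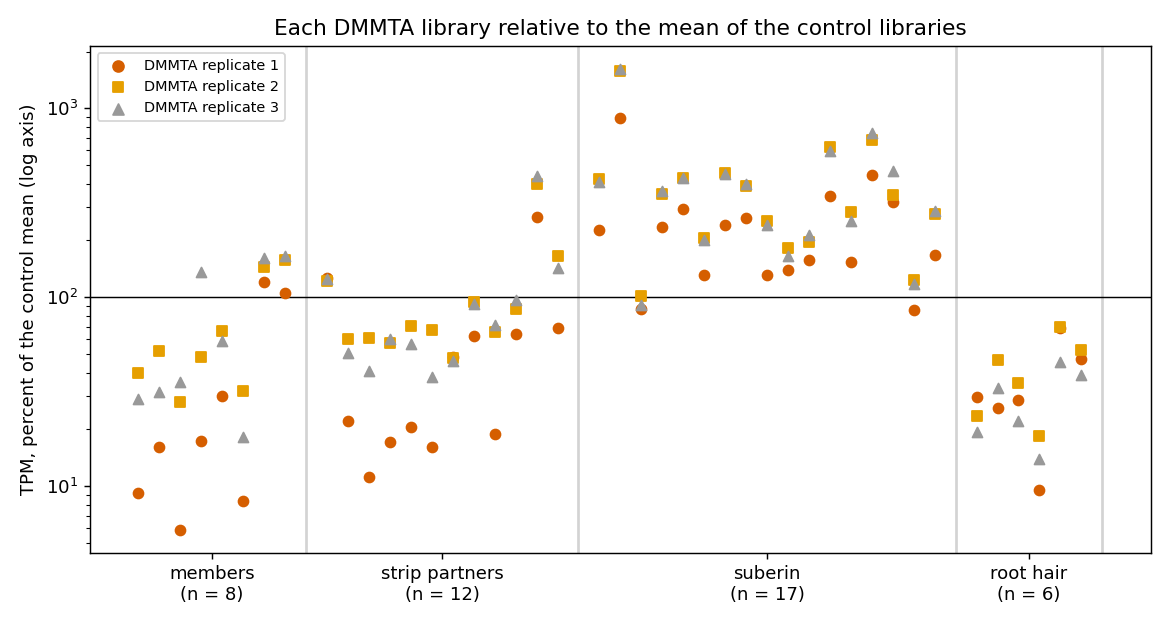
TPM of each DMMTA library as a percentage of the control mean, on a log axis, one column of symbols per gene, for the Casparian strip genes and 3 other lists. DMMTA replicate 1 (circles) is the lowest of the DMMTA libraries for all 8 members and all 17 suberin genes but not for all root hair genes.

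The other genes of strip building were compared next, over a list of 12 tested genes for positioning and lignification partners of the strip. Of these, 5 were called lower, where 10.5% of all tested loci were, and 2 higher, where 17.4% were, and the same shares of all loci stand behind the list counts that follow. Their median log2 fold change was -0.90, where that of all loci was 0.04. Most of the lower ones encode dirigent-like proteins, relatives of ESB1. AT3G55230 went from 24.3 ± 2.22 to 9.81 ± 6.19 TPM (SD, n = 3, adjusted p = 0.0267, limma), AT2G39430 from 11.1 ± 0.752 to 4.17 ± 2.76 TPM (adjusted p = 0.0315), AT3G24020 from 17.4 ± 3.76 to 7.78 ± 4.16 TPM (adjusted p = 0.0468) and AT1G07730 from 2.60 ± 0.347 to 1.23 ± 0.0357 TPM (adjusted p = 0.00393). UCC1, a copper-binding uclacyanin found at the strip, fell from 14.0 ± 2.56 to 6.23 ± 2.79 TPM (adjusted p = 0.0220). DMMTA replicate 1 was the lowest DMMTA library in 10 of the 12.

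Of the 2 called higher, AT5G66390, annotated as a peroxidase, rose 3.67-fold, from 34.9, 32.8 and 29.9 TPM in control to 86.5, 129 and 143 TPM in DMMTA (adjusted p = 0.000155, limma). EXO70A1, the exocyst subunit that places the CASP domain, rose 1.25-fold, from 44.3 ± 4.94 to 55.3 ± 1.13 TPM (adjusted p = 0.0482), a call lost under 11 of the 16 alternatives. The dirigent-like AT4G13580 (11.6 ± 1.27 to 5.71 ± 3.00 TPM, adjusted p = 0.0503, limma) was not called, although every DMMTA library lay below every control library. The same held for the peroxidase AT1G44970 (5.45 ± 1.07 to 2.84 ± 1.58 TPM, adjusted p = 0.0896). The peroxidases AT4G11290 and RCI3 and the laccase LAC3 were not called, and their groups overlapped. The 5 lower calls became 2, 1 and 2 without control replicate 1, 2 or 3, and 3 without DMMTA replicate 3. They became 6 without DMMTA replicate 1 or 2.

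**Figure D3:**
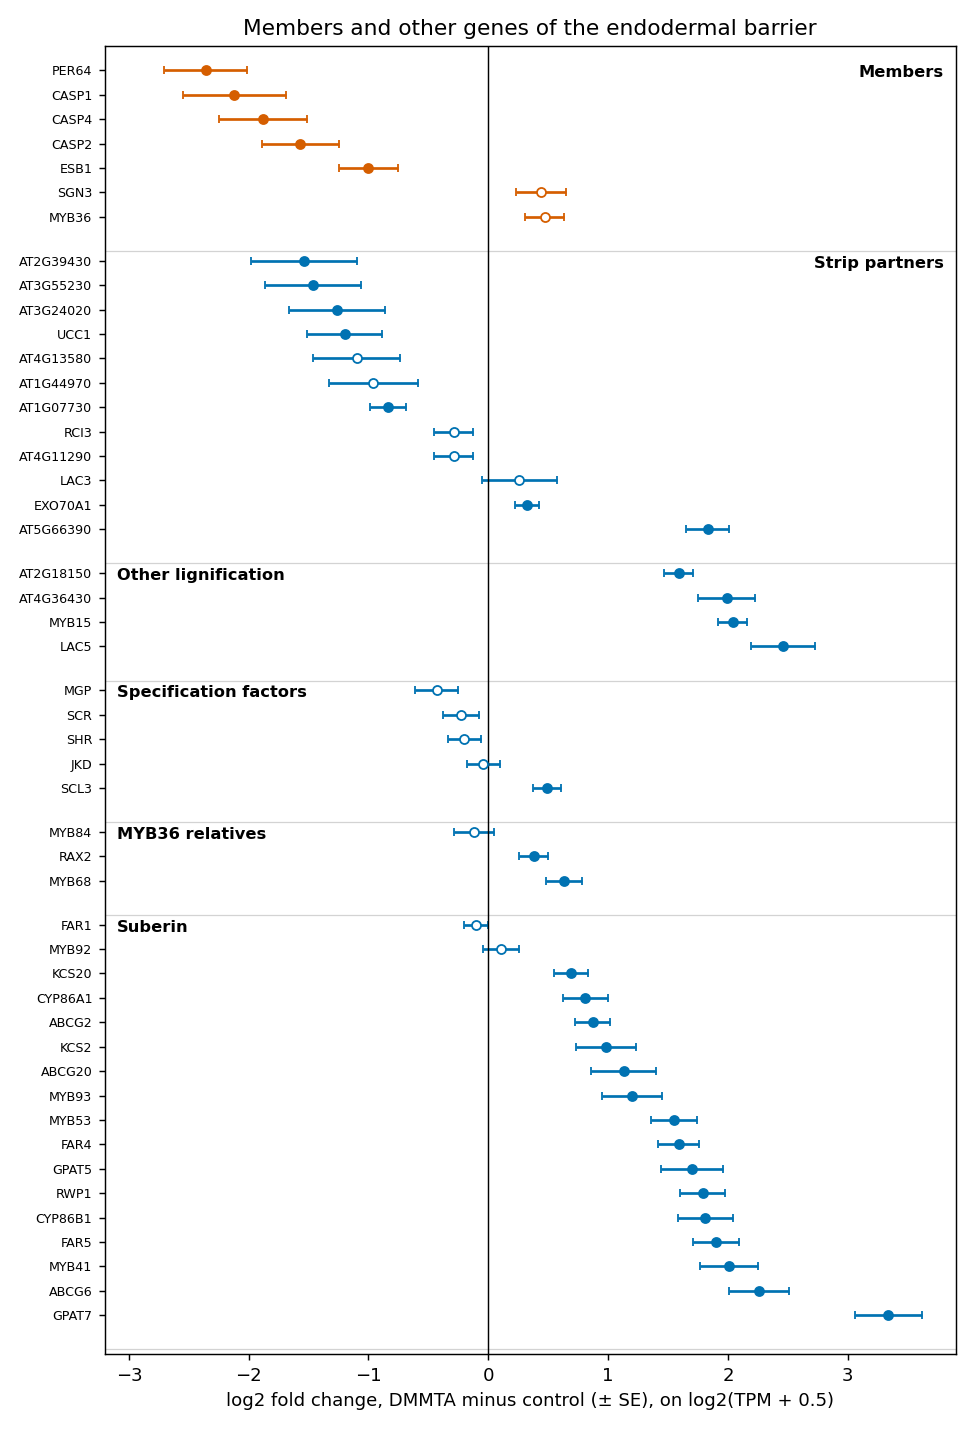
Log2 fold change (DMMTA minus control, ± SE) of the fitted members (orange) and of other genes of the endodermal barrier (blue), filled where called at an adjusted p under 0.05. Structural strip genes and most of their partners lie left of 0, and the other lignification genes and most suberin genes lie right of it.

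Upstream of the strip, the factors that specify the endodermis were compared. SCR, the GRAS transcription factor expressed in the endodermis, had 7.90, 10.8 and 7.98 TPM in control and 7.75, 7.68 and 6.94 TPM in DMMTA (adjusted p = 0.284, limma). Its partner SHR had 7.54 ± 0.735 and 6.52 ± 0.915 TPM (adjusted p = 0.330), and the zinc finger protein JKD 9.36 ± 0.639 and 9.17 ± 1.43 TPM (adjusted p = 0.865). The zinc finger protein MGP had 3.54 ± 0.632 and 2.49 ± 0.452 TPM (adjusted p = 0.107), and was called lower with limma-voom and without control replicate 3. SCL3, a GRAS protein of the same network, rose 1.42-fold, from 9.91 ± 1.21 to 14.1 ± 0.838 TPM (adjusted p = 0.0188), which was lost on leaving out DMMTA replicate 1 or 2 or control replicate 1. In all, 1 of 5 tested was called higher and 0 lower, a share near that of all loci, with a median log2 fold change of -0.20. SCR was the sole endodermis marker used apart from the strip genes. The other listed markers were left out because the annotation does not name them, so their levels were not looked at.

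Around the receptor, RBOHF, the NADPH oxidase that supplies reactive oxygen for lignin at the strip, rose from 12.0 ± 1.96 to 17.4 ± 1.33 TPM (adjusted p = 0.0249, limma). The call was lost without DMMTA replicate 1 or 2. TPST, which sulfates the peptide ligands of SGN3, had 11.7 ± 1.19 and 11.3 ± 0.362 TPM (adjusted p = 0.850). GSO2, the nearest relative of SGN3, was under 1 TPM throughout, at 0.145 to 0.209 TPM in control and 0.244 to 0.731 TPM in DMMTA, and was not fitted. Among close MYB relatives of MYB36, MYB68 rose from 5.94 ± 0.880 to 9.45 ± 1.04 TPM (adjusted p = 0.0126) and RAX2 from 7.65 to 9.24 TPM in control to 11.1 ± 0.855 TPM in DMMTA (adjusted p = 0.0498), while MYB84 was not called. The call for MYB68 was lost without DMMTA replicate 3, and that for RAX2 on leaving out any of the 6 libraries.

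Genes of other lignification and of suberin were higher. Of 4 genes tied to lignin made in response to stress or a broken barrier, 4 were called higher, with a median log2 fold change of 2.02. The laccase LAC5 rose 6.08-fold, from 4.40, 5.26 and 2.77 TPM to 16.8, 31.0 and 27.8 TPM (adjusted p = 0.000277, limma). MYB15, a regulator of lignin made under stress, rose 4.52-fold, from 4.01 ± 0.317 to 18.1 ± 1.67 TPM (adjusted p = 1.86e-05). The peroxidases AT4G36430 and AT2G18150 rose 3.82-fold and 3.10-fold. These 4 calls were made under each of the 16 alternatives.

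Of 17 suberin genes, 15 were called higher and 0 lower, with a median log2 fold change of 1.55. GPAT7, an acyltransferase of the glycerol-based monomers, rose 13.6-fold, from 1.45, 1.77 and 0.769 TPM to 11.8, 21.0 and 21.5 TPM (adjusted p = 7.52e-05, limma). ABCG6, an ABC transporter needed for suberin export, rose 5.22-fold, from 5.50 ± 1.36 to 28.7 ± 8.45 TPM (adjusted p = 0.000309). FAR1, a fatty acyl reductase, had 21.1 ± 0.518 and 19.7 ± 1.64 TPM and MYB92, a suberin regulator, 9.31 to 10.7 TPM in control and 8.63 to 12.4 TPM in DMMTA, neither called. DMMTA replicate 1 was the lowest DMMTA library in 17 of the 17, as it was for the strip genes, although the suberin list moved the other way. It was also the lowest for all 5 tested xylem markers. With one library left out, 12 to 15 were called.

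CASP1 and its relatives are annotated as members of UPF0497, an otherwise uncharacterized family of membrane proteins that includes the CASP-like proteins. Of 34 other loci of that family, 30 were fitted, 5 were called higher and 5 lower, where 17.4% and 10.5% of all loci were, and the median log2 fold change was 0.02, where that of all loci was 0.04. AT4G03540 rose 9.84-fold, from 5.33 ± 0.617 to 52.4 ± 14.4 TPM (adjusted p = 2.34e-05, limma), and AT1G03700 rose 5.89-fold, from 2.97 ± 1.29 to 17.5 ± 6.25 TPM (adjusted p = 0.00129). AT3G50810 fell 2.23-fold, from 10.6 ± 2.14 to 4.75 ± 0.166 TPM (adjusted p = 0.00161), and AT3G06390 fell 2.11-fold, from 12.1 ± 1.88 to 5.74 ± 1.35 TPM (adjusted p = 0.00455). Leaving out each library in turn gave 3 to 7 lower calls and 4 to 7 higher calls in this family.

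The loci whose profile over the 6 libraries was most like the mean profile of the 7 fitted genes were sought among 14354 other loci averaging at least 5 TPM. Likeness was the root mean square difference of log2(TPM + 0.5), each locus centred on its own mean. The nearest was AT1G30750 at 0.0689, annotated as TPRXL, with 10.3, 10.4 and 9.08 TPM in control and 2.38, 6.82 and 5.45 TPM in DMMTA. UCC1 followed at 0.124, CER4, a fatty acyl reductase, at 0.131, the dirigent-like AT4G13580 at 0.149 and AT2G28671, the antisense neighbour of ESB1, at 0.172. Of the 5, 2 were on the list of strip partners. The members were chosen with this contrast in view and the list with earlier results known, so nothing is read from that count. Among the members themselves, ESB1 was closest to the mean, at 0.0984, and MYB36 and SGN3 farthest, at 0.854 and 0.822. Each member is part of that mean, so these distances are not comparable with those of other loci.

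**Figure D4:**
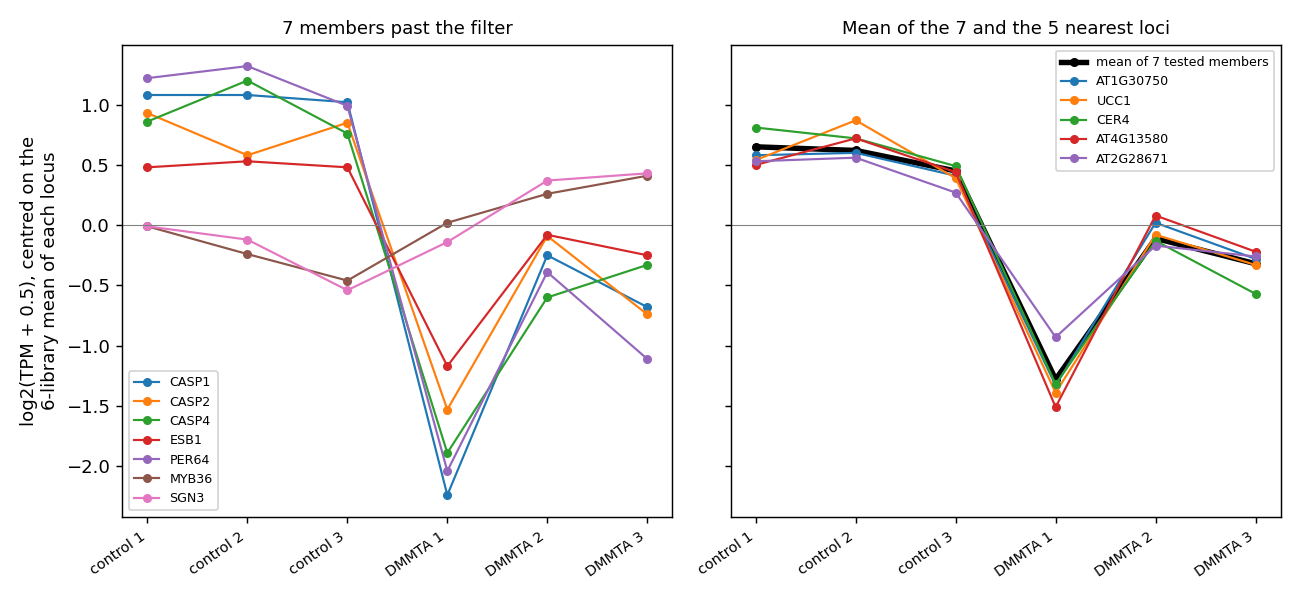
Log2(TPM + 0.5) centred on the 6-library mean of each locus, by library, for the 7 fitted members (left) and for their mean with the 5 nearest other loci (right). Lines only join the values of a locus. The mean profile is 0.65, 0.62 and 0.45 in control and -1.28, -0.11 and -0.32 in DMMTA.

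Markers of other root tissues were compared as well, where 10.5% of all tested loci were called lower. The root hair and pericycle lists were called lower in full, and the others in part or not at all. A single call in a short list is not read as a shift of its tissue. Of 6 root hair markers, 6 were called lower, their summed level being 93.7 to 122 TPM in control and 24.2 to 34.8 TPM in DMMTA. The call for RHD6 was lost without DMMTA replicate 3 and on leaving out any control library. The pericycle and stele markers PHO1, a phosphate exporter, and SKOR, a potassium channel, were both called lower, with summed levels of 60.3 to 75.5 and 20.1 to 23.0 TPM. Of 5 tested xylem markers XCP1 was called lower, summed levels over 7 being 130 to 149 and 102 to 127 TPM, and of 4 phloem markers SEOa was called lower, with sums of 99.6 to 125 and 83.9 to 96.6 TPM. The call for XCP1 was lost without DMMTA replicate 1, and that for SEOa on leaving out any one DMMTA library or control replicate 2. Of 3 tested root meristem markers WOX5 was called lower, with sums of 4.84 to 5.88 and 1.22 to 3.58 TPM. The cortex marker C/VIF2 (27.1 to 36.6 and 19.7 to 29.0 TPM) and 3 tested root cap markers, with FEZ summing to 5.04 to 6.24 and 2.25 to 6.72 TPM, were not called. Without DMMTA replicate 1, C/VIF2, the root cap marker SMB and the meristem marker PLT2 were called lower. None of these markers was at 0 in any library, and their part in the differences of the Casparian strip genes was not tested.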

How the data were processed

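Libraries were made from poly(A) RNA with a directional kit, per the labels' protocols, which also give the groups. The deposited tables give RPKM, FPKM and TPM per coding sequence as the authors computed them, per the file headers. The submitters' processing notes name DESeq2 without a role. For the aligner, counting method, strand setting and build, nothing is given in the sources used here. The tables hold no counts.

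Of 48350 lines per table, 46466 were used, 3.9% having displaced or emptied cells. RPKM was summed per locus, because variants of one locus seemed to split their reads, and rescaled to 1000000 per library. Of 26551 loci, 26444 matched TAIR10.1, 26443 of them with the same number of coding sequences, so its names, coordinates and RefSeq sequence were used. In the depth estimate, 88.8% to 94.0% of the low values used were whole reads to within 0.2. Read estimates cover counting error only.

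The fit used limma 3.58.1 under R 4.3.3 on log2(TPM + 0.5), with an intensity trend, for loci reaching 1 TPM in 3 or more libraries. A call is an adjusted p (Benjamini-Hochberg) under 0.05. The fit was tested on simulated data in which the spread was set alike in both groups. That test does not cover genes whose spread differed between the groups. Of the 9 genes chosen, 1 is not reported here, and no count or mean over the members includes it. The members and lists were chosen with earlier results of these data known. From lists with over 6 tested genes the rule names the largest called changes, 2 in the majority direction and 1 in the other. The remaining strip partners, FAR1 and MYB92 were named after their values were seen. List genes that the annotation does not name were left out, among them the peptide ligands of SGN3. Listed loci that it describes only as dirigent-like or peroxidase were an exception. These were kept under their locus identifiers and entered the list counts. Alternatives were other filters, pseudocounts (0.1 and 2), FPKM, scaling, limma-voom on rebuilt reads, an adjusted p under 0.01, the replicate number as a block and leaving out libraries. Figures were drawn with matplotlib 3.10.9.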

Additional observations from a re-analysis of the deposited data

How the results depend on the processing

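No fitted member changed direction under any alternative run. The count of loci called higher, 3273, was 2244 to 3159 with one library left out, 2022 without both replicate 3 libraries and 1989 at an adjusted p under 0.01. The count called lower, 1979, was 1153 to 1733 with one library left out, 1000 without both replicate 3 libraries and 923 at an adjusted p under 0.01. Median-of-ratios scaling gave 3110 and 2353 and moved the median of all loci to -0.00, and limma-voom gave 2830 and 2738 with a median of -0.05. Members called lower, 5, became 4 to 5 with one library left out, 2 without both replicate 3 libraries and 1, PER64, with no filter on low values, where more loci were fitted. CASP4 and PER64 were the 2 without both replicate 3 libraries, and ESB1 was the one lost without control replicate 3. Members called higher, 0, became 0 to 1 with one library left out, MYB36 being called without control replicate 1. The log2 fold change of CASP4, -1.88, was -2.62 with limma-voom and -1.21 with a pseudocount of 2. The cause of these shifts was not tested.

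Replicate numbers were taken as names only. Deviations from the group means correlated at 0.243, 0.334 and 0.082 between libraries of the same number, the last not over 0.1, although every library correlated best with its own number. With the replicate number as a block, 3539 loci were called higher and 2242 lower, and the 5 members called lower were again called. Depth limits CASP5, with 6 to 44 estimated reads, and CASP4 in DMMTA replicate 1, with 21.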

Other observations

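The mean profile of the 7 fitted members mixes 5 genes that were lower in DMMTA with MYB36 and SGN3. Against the mean of the 5 lower genes alone, a comparison chosen after the values were seen, the nearest other loci were the dirigent-like AT2G39430 at a root mean square difference of 0.206, the dirigent-like AT3G55230 at 0.221 and AT1G22065, an uncharacterized protein gene, at 0.231. AT1G22065 had 20.0, 26.2 and 24.0 TPM in control and 3.23, 7.75 and 5.44 TPM in DMMTA. CER4 followed at 0.259 and AT3G05155, annotated as a major facilitator superfamily transporter, at 0.263. MSRB7, a methionine sulfoxide reductase, was next at 0.264, with 53.0, 63.9 and 55.2 TPM in control and 13.1, 29.0 and 16.6 TPM in DMMTA. The members themselves lay at 0.199 (CASP2) to 0.411 (ESB1) from that mean, apart from MYB36 at 1.19 and SGN3 at 1.16. The 5 lower genes make up that mean, so their distances are not comparable with those of other loci.

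Of the root hair markers, PRP3, a proline-rich cell wall protein, fell 7.18-fold, from 38.5, 58.4 and 36.2 TPM to 4.23, 8.15 and 6.16 TPM (adjusted p = 0.000104, limma). PHO1 fell 3.08-fold, from 65.5 ± 7.36 to 21.3 ± 1.46 TPM (SD, n = 3, adjusted p = 3.42e-05), and SKOR 8.53-fold, from 2.62 ± 0.742 to 0.307 ± 0.0639 TPM (adjusted p = 0.000272). DMMTA replicate 1 was the lowest DMMTA library for PRP3 and the highest for SKOR.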
